A study of Sus scrofa with 48 samples.

Results

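Genes of voltage-gated ion channels and of the channel families close to them were followed in the longissimus muscle of 48 pigs. The members were all probes whose gene name, or a symbol in brackets in the probe description, starts with KCN, CACN or CLCN, or is SCN followed by a digit. This name rule found 121 probes of 81 genes among 60305 probes, and 80 of the 81 symbols are also in RefSeq's gene table for the Sscrofa11.1 assembly, as are 10721 gene names of the whole array. A probe was kept when 12 or more of the 48 arrays had its spot well above background. This held for 66 probes of 47 genes, beside 42125 probes of the whole array. The other 55 probes were not kept, and 34 genes had no kept probe. The name rule takes in more than channels opened by voltage: inward rectifiers (8 kept probes), two-pore potassium channels (2 kept probes) and CLC proteins (2 kept probes) were kept too.

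The pigs were barrows of purebred Large White lines selected in opposite directions for residual feed intake (RFI), the part of feed intake that growth and maintenance do not explain. Low RFI pigs (RFIneg) eat less than predicted and high RFI pigs (RFIpl) eat more. Pigs of each line had free access to a high fat, high fiber diet (HF) or a low fat, low fiber diet (LF), which made 4 groups of 12 pigs: HF_RFIneg, HF_RFIpl, LF_RFIneg and LF_RFIpl. The labels used here give no age. Each line is a single selection line, so that the effects of the selected trait and of drift within a line cannot be told apart.

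Voltage-gated channels are membrane pores that open when the voltage across the membrane changes. In a skeletal muscle fibre, sodium channels carry the action potential along the surface and into the tubules, calcium channels of the tubules act as the voltage sensor that releases calcium from the store, and potassium and chloride channels bring the membrane back to rest. Most pores are joined by auxiliary subunits, which set how many channels reach the surface and how fast they open and close. KCNE1, also called MinK, is a small auxiliary subunit that slows the potassium channel KCNQ1 in heart.

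KCNE1 was read by 3 probes, and their sequences are given because the probes did not move together. The first probe shares a run of 40 bases with the probe O7553, set in capitals, and each has 20 bases of its own. For the probe A_72_P642038, whose place in the transcript was not determined, only the first 30 of 60 bases are given. It shares no run above 8 bases with the other probes.
KCNE1 A_72_P035586: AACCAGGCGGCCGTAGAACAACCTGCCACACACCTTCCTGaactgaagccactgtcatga
KCNE1 O7553: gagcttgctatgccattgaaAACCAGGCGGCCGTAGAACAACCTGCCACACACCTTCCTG
KCNE1 A_72_P642038, first 30 bases: ttgcacttttctcttagaaagttcagtctc
Of the 3 probes, only A_72_P642038 carries a transcript that the RefSeq table lists under KCNE1. A_72_P035586 and O7553 are KCNE1 probes by the names in the files. That look-up went by accession alone, so an accession missing from the table does not show that a probe reads another gene. It therefore gives no reason to trust A_72_P642038 above A_72_P035586 or O7553. The target of A_72_P035586 and O7553 was not settled here.

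Each of 6 slides carried 8 arrays, 2 per group, so that slide and group were balanced, and the slides were read on 2 scan days. Array medians of the processed signal lay between 52.8 and 107.9, and 59.2% to 74.2% of the probes of an array passed as well above background, with 0 saturated spots. The brightest array, pig 45 of HF_RFIpl, was also the farthest from the centre on the first 2 principal components, and results were recomputed without it. Values are log2 processed signals relative to the mean of the tested probes of the same array, and a line difference is high RFI minus low RFI, averaged over both diets. A probe was called at an adjusted p under 0.05 in limma, adjusted over all 42125 tested probes. The tissue label was met by its markers: all 12 muscle fibre genes of the marker list had kept probes, each well above background on 48 arrays. In whole muscle, fewer cells of a type and less RNA per cell cannot be told apart.

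KCNE1 by its probe A_72_P035586 was the member with the largest line difference, and it was lower in high RFI pigs on both diets. In HF_RFIneg the values ran from -3.83 to -0.97 with a median of -1.69, and in HF_RFIpl from -5.11 to -1.73 with a median of -3.39. In LF_RFIneg they ran from -2.33 to -1.07 with a median of -1.86, and in LF_RFIpl from -4.86 to -0.86 with a median of -4.24. The lines overlapped, since 1 high RFI pig on the LF diet had the highest value of all pigs, but 13 of 24 high RFI pigs lay below every low RFI pig. The spot was well above background in all 24 low RFI pigs, in 10 of 12 HF_RFIpl pigs and in 5 of 12 LF_RFIpl pigs, so that the means of the high RFI groups hold spots near background. The means were -1.77 ± 0.69 (SD, n = 24) in the low RFI line and -3.55 ± 1.16 (SD, n = 24) in the high RFI line. The line difference of this KCNE1 probe was -1.78 (SE 0.27, adjusted p = 9.93e-06), or 3.44-fold lower. Averaged over the 2 kept KCNE1 probes, which went opposite ways, the difference was -0.68 (SE 0.14, adjusted p = 0.000834). That average includes A_72_P642038, which passed the filter through the line in which it was higher.

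On the HF diet the KCNE1 difference of this probe was -1.47 (SE 0.38, adjusted p = 0.0176), and on the LF diet it was -2.09 (SE 0.38, adjusted p = 0.00084). The difference between the diets, 0.63, had a 95% interval from -0.45 to 1.71 and was not called (adjusted p = 0.999). The line difference of this probe was below 0 on each of the 6 slides, from -2.61 to -0.94. Its size depended on the processing: it was -0.74 after normexp and -1.03 in the deposited table. It stayed called (adjusted p from 2.74e-07 to 1.82e-05 over 9 alternatives). The authors' lists of probes that predict feed efficiency, which were chosen on pigs that include these, hold this KCNE1 probe and a KCNAB1 probe, and that choice is no independent evidence. They also hold probes listed there as KCNJ2, an inward rectifier, which carry other names in the files and are no members here.

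This fall was not seen by a second KCNE1 probe: A_72_P642038 went the other way, and O7553 was too dim to tell. The probe A_72_P642038 was higher in high RFI pigs: values ran from -5.09 to -3.41 with a median of -4.11 in the low RFI line, and from -4.82 to -3.25 with a median of -3.72 in the high RFI line. The lines overlapped, and the spot was well above background in 9 of 24 low RFI and 18 of 24 high RFI pigs. The probe passed the filter through the line in which it was higher, since 9 arrays fall short of the 12 required. Its line difference was 0.42 (SE 0.13, adjusted p = 0.0178), or 0.43 without a filter on dim probes (adjusted p = 0.0449), but the call was lost after quantile normalization (0.34, adjusted p = 0.102) and after normexp (0.05, adjusted p = 0.407). The KCNE1 probe O7553, in spite of the 40 bases it shares with A_72_P035586, was well above background on 1 array, a LF_RFIneg array, and was not kept. Its values ran from -6.75 to -3.12 in the low RFI line and from -6.48 to -3.67 in the high RFI line, and no fold is given for it. The 2 probes of KCNQ1, the pore that KCNE1 is known to join, were well above background on 0 and 1 arrays and were not kept.

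**Figure D1:**
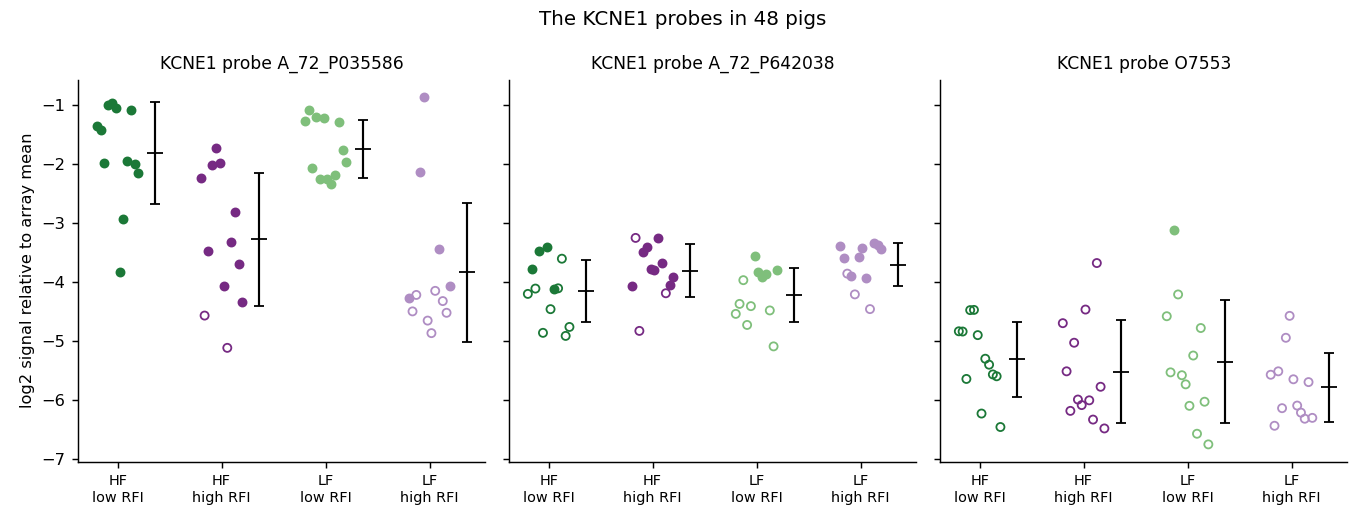
Log2 signal relative to the array mean (y axis) for the 3 KCNE1 probes in the 4 groups of 12 pigs, with filled points for spots well above background, open points for other spots, and bars for the mean ± SD. The left panel shows the fall in high RFI pigs, with 5 filled points of 12 in LF_RFIpl, while the right panel has 1 filled point in all.

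Over both diets 13 of the 66 kept probes (19.7%) were called between the lines, against 16.4% of all tested probes, so that the share of members was near that of the array. Of the 13, 10 were lower and 3 higher in high RFI pigs, where 9.85% of all tested probes were called lower and 6.57% higher. They stand for 11 genes, and 27 of the 66 probes had an unadjusted p under 0.05 (31% of all tested probes). The median line difference of the 66 members was -0.02, beside -0.03 over all tested probes, and the median size of the difference was 0.14, beside 0.10. Most differences were small, with 56 of 66 below 0.3 in size. Among the 42 members well above background on every array 11 were called (26.2%), beside 18.4% of the 32719 probes of that kind.

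**Figure D2:**
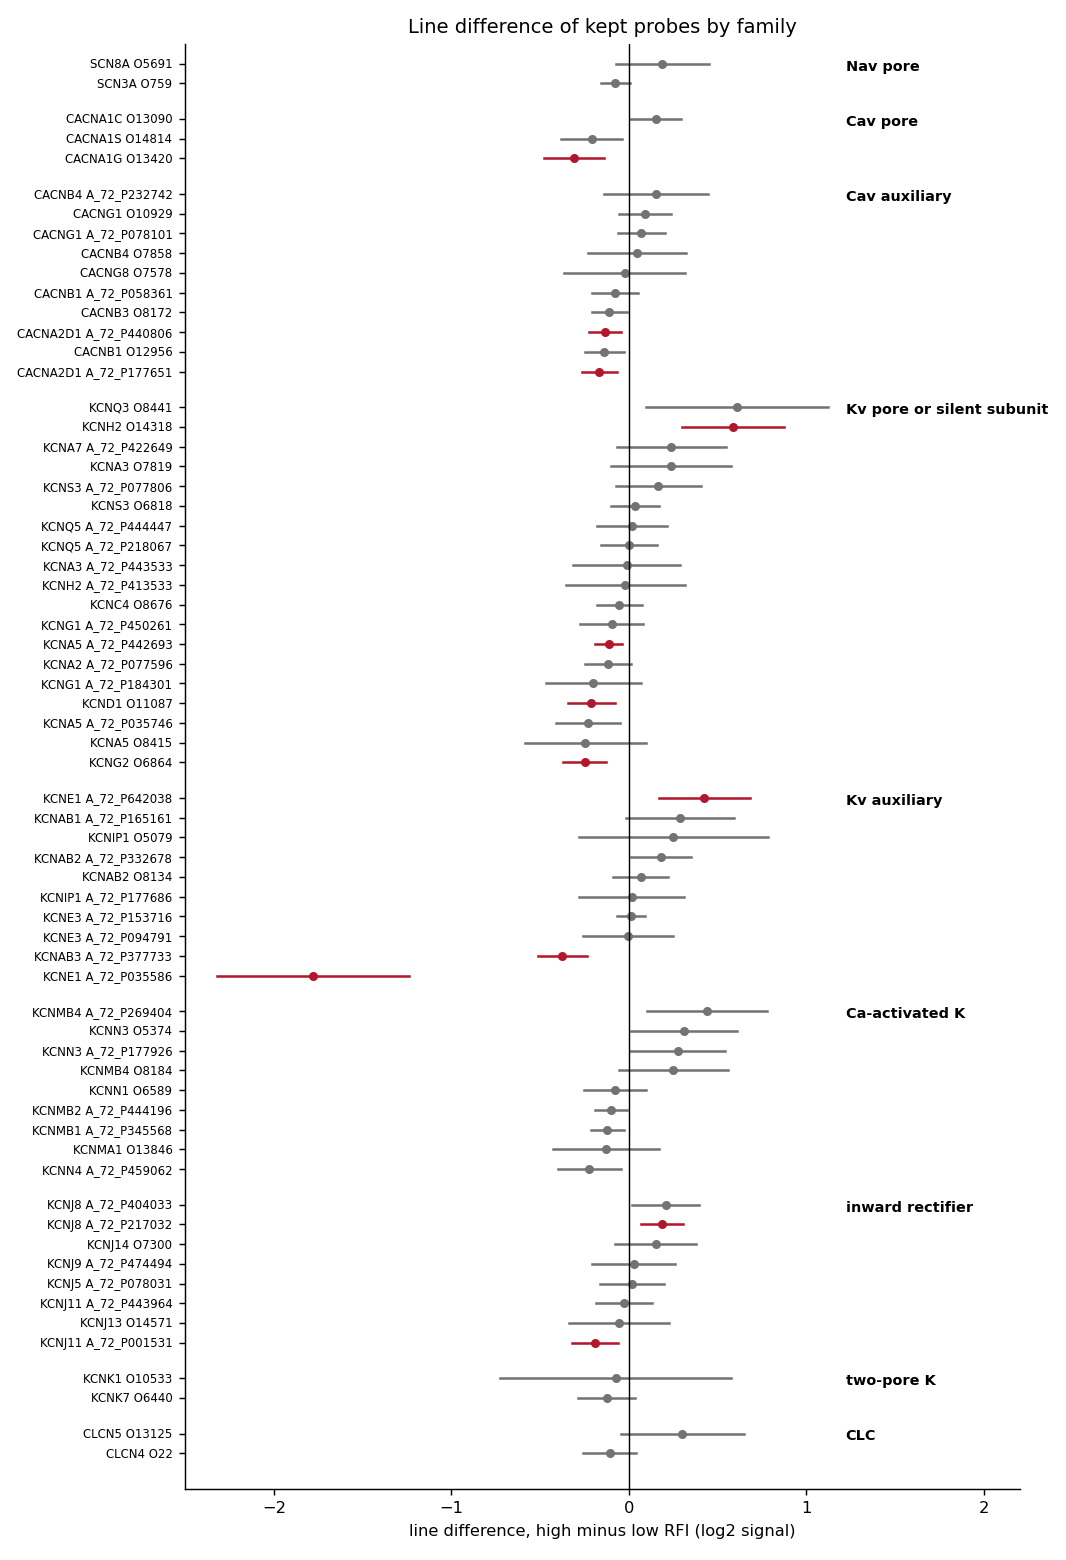
Line difference (x axis, log2, high minus low RFI) of 65 of the 66 kept probes with 95% intervals, grouped by channel family, with called probes in red. Most intervals lie within 0.5 of 0, and the KCNE1 probe A_72_P035586 at -1.78 stands apart from all others.

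The sodium channel pores SCN3A and SCN8A, better known from nerve, carry the rising phase of the action potential. They were not called between the lines, at -0.08 and 0.19. SCN4A, the pore of the adult muscle fibre, had no probe under the name rule and was not analysed here, and the same held for CLCN1, KCNJ2, KCNJ12 and KCNC1.

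Among calcium channels, CACNA1G, a pore that opens at low voltage, and CACNA2D1, the auxiliary subunit of the fibre's voltage sensor, were lower in high RFI pigs. CACNA1G ran from -1.86 to -0.52 with a median of -1.28 in the low RFI line, and from -1.99 to -1.09 with a median of -1.66 in the high RFI line. The lines overlapped over most of their range, and 20 of 24 high RFI pigs lay below the mean of the low RFI line. The CACNA1G difference was -0.31 (SE 0.08, adjusted p = 0.00954), or 1.24-fold lower.

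Both CACNA2D1 probes were called. The probe A_72_P177651 ran from 5.49 to 6.06 with a median of 5.76 in the low RFI line, and from 5.23 to 5.83 with a median of 5.65 in the high RFI line. Its difference was -0.17 (SE 0.05, adjusted p = 0.0154), and that of the CACNA2D1 probe A_72_P440806 was -0.13 (SE 0.05, adjusted p = 0.0363). Both calls were lost after normexp and without a filter on dim probes, and the second also after quantile normalization and without pig 45 of HF_RFIpl (-0.12, adjusted p = 0.0556).

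The other subunits of the voltage sensor were not called. CACNA1S, its pore, had a mean of 3.44 ± 0.28 (SD, n = 24) in the low RFI line and of 3.23 ± 0.31 (SD, n = 24) in the high RFI line, a difference of -0.21 with an interval from -0.38 to -0.04 (adjusted p = 0.0845). CACNB1, its beta subunit, was at -0.14 (adjusted p = 0.0687) by its brighter probe and at -0.08 (adjusted p = 0.413) by the other. CACNG1, its gamma subunit, was at 0.07 (adjusted p = 0.495) and 0.09 (adjusted p = 0.41) by its 2 probes. With the slide as a block, the brighter CACNB1 probe was called (adjusted p = 0.0459), as was CACNB3, another beta subunit (-0.11, adjusted p = 0.0253). Of the 10 kept probes of auxiliary calcium channel subunits, 2 were called lower, both of CACNA2D1, and 0 higher, beside 9.85% lower and 6.57% higher of all tested probes.

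Potassium channel pores made the largest family, with 19 kept probes of 12 genes, of which 3 were called lower and 1 higher, near the 16.4% called of all tested probes. KCNG2 encodes a subunit that forms no channel alone and changes the channels it joins. Its values ran from 4.10 to 4.92 with a median of 4.49 in the low RFI line, and from 3.78 to 4.64 with a median of 4.25 in the high RFI line. The lines overlapped, with 6 of 24 high RFI pigs below every low RFI pig. The KCNG2 difference was -0.25 (SE 0.06, adjusted p = 0.00373), or 1.19-fold lower.

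KCND1, a pore of fast inactivating current, ran from 1.27 to 2.31 with a median of 1.83 in the low RFI line, and from 1.02 to 2.02 with a median of 1.62 in the high RFI line. The lines overlapped. Its difference was -0.21 (SE 0.07, adjusted p = 0.0215), and on slide 2 it was 0.01. The KCND1 call was lost without a filter on dim probes (adjusted p = 0.0516). The KCND1 difference was -0.37 under the HF diet (adjusted p = 0.0146) and -0.05 under the LF diet (adjusted p = 0.831). That contrast between the diets was -0.32 with an interval from -0.58 to -0.05, and was not called (unadjusted p = 0.0195, adjusted p = 0.999).

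KCNA5, a delayed rectifier, had 3 kept probes, all on the lower side. The called probe A_72_P442693 ran from 1.41 to 1.91 in the low RFI line and from 1.34 to 1.81 in the high RFI line, and differed by -0.11 (SE 0.04, adjusted p = 0.0257). The lines overlapped almost throughout. The call was lost after normexp (-0.08, adjusted p = 0.121) and in 3 other alternatives. The other KCNA5 probes were at -0.23 (adjusted p = 0.0728) and -0.25 (adjusted p = 0.329).

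KCNH2, a potassium channel known for repolarising the heart, was higher in high RFI pigs by its probe O14318. In the low RFI line values ran from 1.41 to 3.60 with a median of 2.16, and in the high RFI line from 1.67 to 3.59 with a median of 3.01. The lines overlapped over nearly the whole range, yet 21 of 24 high RFI pigs lay above the mean of the low RFI line. The KCNH2 difference was 0.59 (SE 0.14, adjusted p = 0.00366), or 1.5-fold higher, with 0.78 on the HF diet (adjusted p = 0.0176) but 0.40 under the LF diet (adjusted p = 0.315).

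The second KCNH2 probe, A_72_P413533, was well above background on 33 arrays and was at -0.02, with an interval from -0.36 to 0.32 (adjusted p = 0.952). The longest run of bases that the probes share is 5, and the first 30 bases of the first and the whole of the second are given for comparison.
KCNH2 O14318, first 30 bases: ggcacctcaaggacttttctgctatttact
KCNH2 A_72_P413533: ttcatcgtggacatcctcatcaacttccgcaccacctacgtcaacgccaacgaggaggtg
The GC content of the KCNH2 probes was 35% for O14318 and 55% for A_72_P413533. Averaged over both, KCNH2 was at 0.28 (SE 0.13, adjusted p = 0.119).

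The remaining potassium channel pores were not called. KCNC4, which closes fast after repolarisation, was at -0.05 (adjusted p = 0.602), KCNA7 at 0.24 (adjusted p = 0.282) and the brighter probe of KCNQ5 at 0.00 with an interval from -0.16 to 0.16. KCNQ3 had the largest line difference of the family, 0.61 (SE 0.25), but was well above background on only 18 arrays and was not called (adjusted p = 0.0913). It passed the filter through the line in which it was higher. Its spot was well above background on 8 HF_RFIpl and 5 LF_RFIpl arrays, but on 3 HF_RFIneg and 2 LF_RFIneg arrays. KCNQ3 was chosen after its values were seen.

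**Figure D3:**
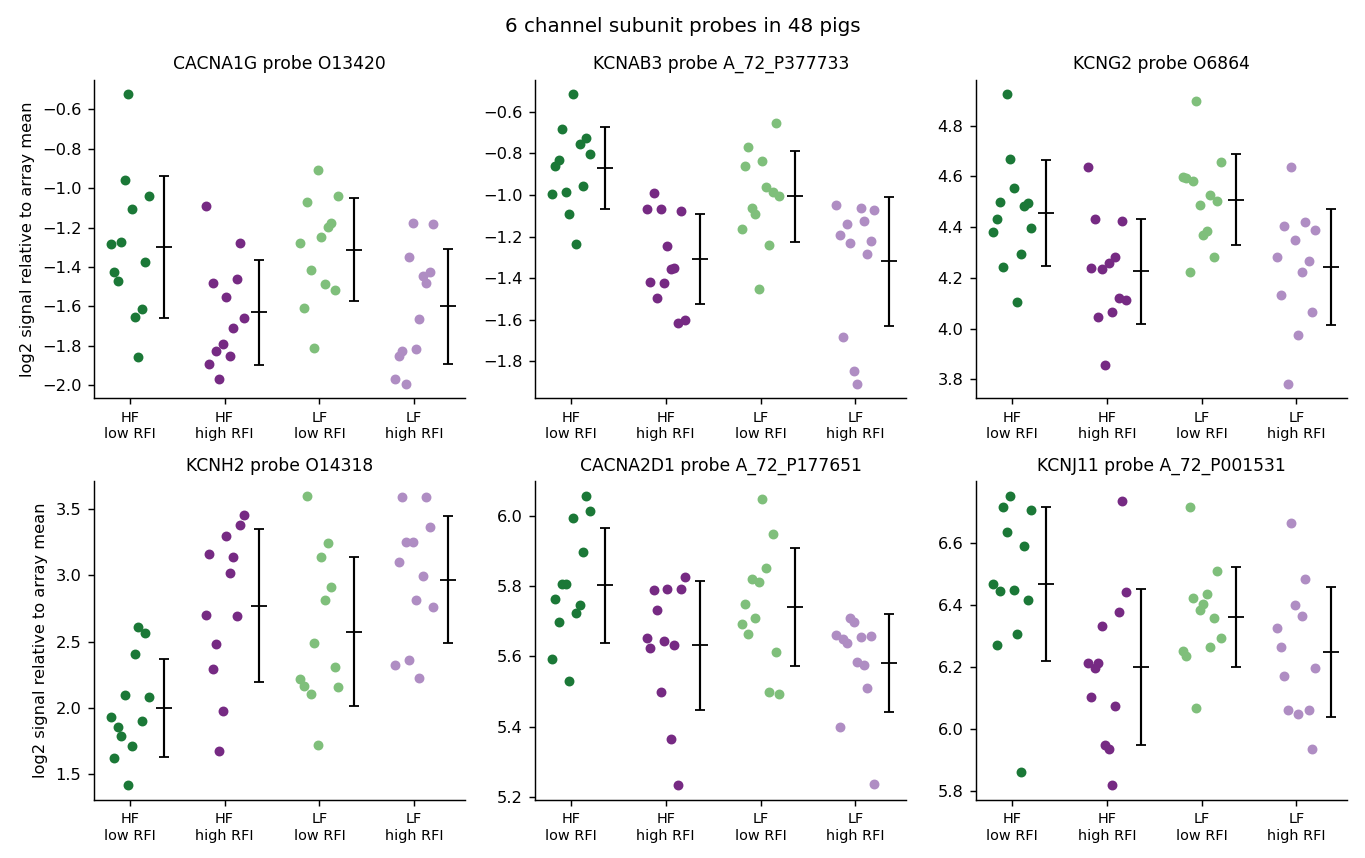
Log2 signal relative to the array mean (y axis, own scale per panel) for 6 probes in the 4 groups of 12 pigs, with points for pigs and bars for the mean ± SD. In every panel the groups overlap, and the line difference of KCNH2 (0.59) has the opposite sign of the other 5.

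Among auxiliary potassium channel subunits, KCNAB3, a beta subunit of the voltage-gated pores, was lower in high RFI pigs. Its values ran from -1.45 to -0.52 with a median of -0.96 in the low RFI line, and from -1.91 to -0.99 with a median of -1.24 in the high RFI line. All 24 high RFI pigs lay below the mean of the low RFI line, and 6 lay below every low RFI pig. The KCNAB3 difference was -0.37 (SE 0.07, adjusted p = 0.000186), or 1.30-fold lower, at -0.44 under the HF diet (adjusted p = 0.00637) and -0.31 under the LF diet (adjusted p = 0.0725). The second KCNAB3 probe, O2891, was well above background on 1 array and was not kept.

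The called KCNAB3 probe holds the letters AATAAA, the signal at which many transcripts are cut and polyadenylated. A stretch of 30 bases is given with these letters in capitals.
KCNAB3 A_72_P377733: gtgttccttcccAATAAAgtcttttgcttt
On the strand given in the files, 6 of the 66 kept probes hold AATAAA (9.09%), beside 11.7% of all tested probes. The kept members had a median GC content of 45% (41.7% over all tested probes), and 50 of 66 had no stop codon in at least 1 of the 3 forward frames (75.8%, beside 80.9%).

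KCNAB1, a beta subunit of the same kind, was not called, with a mean of -1.37 ± 0.56 (SD, n = 24) in the low RFI line and of -1.08 ± 0.55 (SD, n = 24) in the high RFI line. Its difference was 0.29 (SE 0.15, adjusted p = 0.186). The brighter KCNE3 probe had a difference of 0.00, with an interval from -0.26 to 0.25. The only KCNE4 probe was well above background on 2 arrays and was not kept. Of the 10 kept probes in this family, 2 were called lower, beside 9.85% of all tested probes. The only probe called higher, beside 6.57% of all tested probes, was KCNE1 A_72_P642038, which passed the filter through the high RFI line.

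KCNJ11 and KCNJ8 encode pores of the channels that ATP closes and that couple the membrane to the energy state of the cell, KCNJ11 in muscle fibres and KCNJ8 mainly in vessels. They were called in opposite directions. KCNJ11 by its probe A_72_P001531 ran from 5.86 to 6.75 with a median of 6.42 in the low RFI line, and from 5.82 to 6.74 with a median of 6.21 in the high RFI line, so that the ranges were nearly the same. Its difference was -0.19 (SE 0.06, adjusted p = 0.0331), and the call was lost after quantile normalization (-0.13, adjusted p = 0.15), after normexp (adjusted p = 0.0784) and without a filter on dim probes (adjusted p = 0.0915). The other KCNJ11 probe was at -0.03 with an interval from -0.19 to 0.13 (adjusted p = 0.843).

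KCNJ8 by its probe A_72_P217032 ran from -1.02 to -0.26 with a median of -0.58 in the low RFI line, and from -0.76 to 0.05 with a median of -0.40 in the high RFI line. Of the high RFI pigs, 9 lay above every low RFI pig. The KCNJ8 difference was 0.19 (SE 0.06, adjusted p = 0.0223), and the second KCNJ8 probe was at 0.21 (adjusted p = 0.124). The KCNJ8 call was lost without a filter on dim probes (adjusted p = 0.0675). The vascular smooth muscle markers beside it had 1 of 22 kept probes called higher and 0 lower, beside 6.57% and 9.85% of all tested probes.

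Calcium-activated potassium channels had 9 kept probes of 7 genes, of which 0 were called, beside 16.4% of all tested probes. With the slide as a block, which called 20% of all tested probes, 2 of them were called lower. These were KCNMB1 at -0.12 (adjusted p = 0.0429) and the KCNN4 probe A_72_P459062 at -0.22 (adjusted p = 0.0252). KCNN3, the small conductance channel of muscle that lacks its nerve, was at 0.31 (adjusted p = 0.147) and 0.28 (adjusted p = 0.15) by 2 spots of the same 60 bases. KCNMA1, the large conductance pore, was at -0.13 (adjusted p = 0.592), and a second KCNMA1 probe, on 9 arrays, was the last one left out by the filter. The first one inside was KCNJ13, on 15 arrays. KCNMB4, an auxiliary subunit of the large conductance channel, was at 0.44 (SE 0.17, adjusted p = 0.0625) and 0.25 (adjusted p = 0.264) by its 2 probes. Neither two-pore nor CLC probes were called, with differences from -0.12 to -0.07 and from -0.11 to 0.30. The CLC probe at 0.30, of CLCN5, passed the filter through the high RFI line. Its spot was well above background on 6 HF_RFIpl and 7 LF_RFIpl arrays, but on 2 HF_RFIneg arrays and 1 LF_RFIneg array.

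Where a gene had several kept probes, they did not always move together. Of the 18 such genes, 13 had all probes on the same side of 0 and 5 had probes on both sides, and of the 6 with a called probe only CACNA2D1 had all probes called in the same direction. Within slides, 12 of the 13 called probes had the sign of the pooled difference on all 6 slides, and KCND1 on 5. All 13 had it on both scan days.

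**Figure D4:**
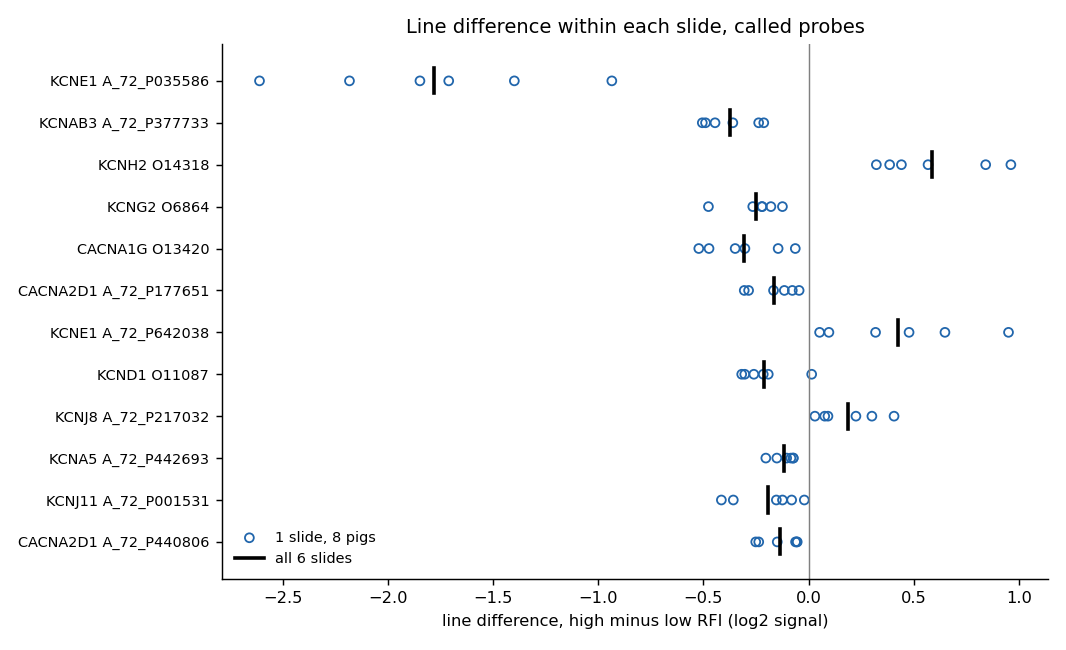
Line difference (x axis, log2, high minus low RFI) of 12 of the 13 called probes within each slide of 8 pigs (open circles) and over all slides (bars). All circles but 1, that of KCND1 at 0.01, lie on the side of their bar.

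On the HF diet alone 6 members were called (9.09%, beside 6.39% of all tested probes), and on the LF diet alone 2 (3.03%, beside 2.47%). KCNE1, KCNAB3, KCNH2, KCND1 and KCNA5 were among the 6, and KCNE1 was among the 2. All 13 probes called over both diets had the same sign on each diet, as had 50 of the 66 members (75.8%, beside 70.6% of all tested probes). None of the members was called for the line by diet interaction, where 0% of all tested probes were called by limma, and 4 members had an unadjusted p under 0.05 (4.45% of all tested probes). The largest interactions were 0.72 for the KCNA5 probe O8415, 0.63 for KCNE1 and 0.48 for KCNMB4, each with an adjusted p of 0.999. The KCNA5 probe O8415 was at 0.11 under the HF diet and -0.60 under the LF diet, and was well above background on 32 arrays.

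**Figure D5:**
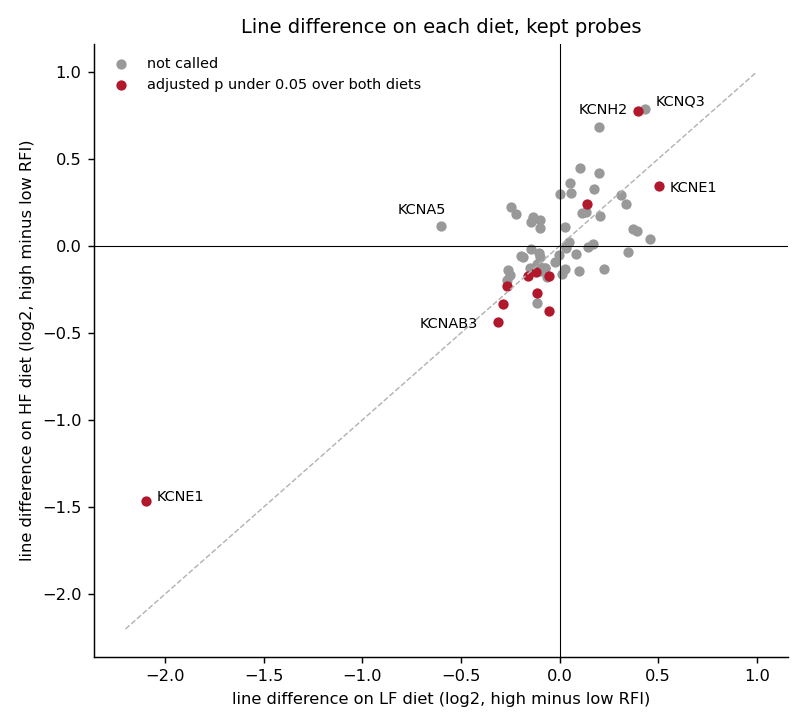
Line difference on the HF diet (y axis) against that on the LF diet (x axis), both log2 and high minus low RFI, for 65 of the 66 kept probes, with 12 of those called over both diets in red and the line of equal values dashed. The red points lie in the quadrants of equal sign, and KCNE1 at -1.47 and -2.09 lies far from the rest.

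Diet changed no member past the threshold: 0 of 66 were called between the diets, beside 0.42% of all tested probes, and 7 had an unadjusted p under 0.05 (13.1% of all tested probes). The smallest adjusted p was that of SCN8A, chosen after its values were seen. SCN8A ran from -2.04 to -0.05 in the 24 pigs on the HF diet and from -2.07 to -0.05 in those on the LF diet. Its difference, HF minus LF, was -0.43 (SE 0.13, adjusted p = 0.113). For KCNE1 by A_72_P035586 the diet difference was 0.24, with an interval from -0.30 to 0.78. KCNAB1 was at 0.35 (adjusted p = 0.301) and KCNC4 at 0.16 (adjusted p = 0.231).

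Genes that act beside these channels in the fibre were read from lists matched by name in the same way. Among genes of excitation-contraction coupling, 19 of 80 kept probes, of 6 genes, were called lower and 7, of 5 genes, higher in high RFI pigs. The counts of these lists stand beside 9.85% of all tested probes called lower and 6.57% called higher, and for the higher calls the share here was near that of the array. RYR1, the calcium release channel that the voltage sensor opens, was called lower by 4 probes, among them A_72_P088506 at -0.25 (adjusted p = 0.00509). CASQ2, a calcium buffer of the store in slow fibres, was higher by 0.77 (adjusted p = 0.00131) by A_72_P306059. Scaffold genes of the membrane and tubules had 9 of 32 kept probes, of 3 genes, lower and 1 higher. Genes of the neuromuscular junction had 1 of 7 higher, that of the receptor subunit CHRNA1 at 0.78 (adjusted p = 0.00541). Of other ion channels, 5 of 55 kept probes, of 3 genes, were higher and 7, of 6 genes, lower, both near the shares of the array. These genes were named after their values were seen.

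Some markers of the cells in the sample also differed between the lines. The counts of the marker lists too stand beside 9.85% of all tested probes called lower and 6.57% called higher. Of the muscle fibre markers 20 of 82 kept probes, of 6 of the 12 genes, were called lower and 0 higher in high RFI pigs. The summed level of that list, as the log2 of the sum over genes of 1 probe each, ran from 13.2 to 13.6 in HF_RFIneg, from 13 to 13.5 in HF_RFIpl, from 13.1 to 13.5 in LF_RFIneg and from 13.2 to 13.5 in LF_RFIpl. Of the peripheral nerve markers 7 of 22 kept probes, of 3 genes, were lower and 3, also of 3 genes, higher. Their summed level ran from 5.53 to 6.18 and from 5.25 to 5.84 on the HF diet in low and high RFI pigs. On the LF diet it ran from 5.53 to 6.30 and from 5.35 to 5.97. Of the macrophage markers 7 of 15, of 4 genes, were higher and 0 lower. Their sums ran from 1.83 to 3.20 in HF_RFIneg, 2.31 to 4.67 in HF_RFIpl, 2.1 to 3.63 in LF_RFIneg and 2.36 to 3.74 in LF_RFIpl. Adipocyte markers had 8 of 32 kept probes higher, all of 1 gene, and 0 lower. Fibroblast markers had 4 of 26 higher, of 2 genes, and 0 lower. Every gene of these marker lists had a kept probe. Endothelial markers had 2 of 18 kept probes higher, of 1 gene, and 0 lower. Satellite cell markers had 2 of 7 higher, of 2 genes, and lymphocyte markers 1 of 7, with 0 lower in both. Of 2 kept erythroid probes 0 were called. The part of these cell types in the channel differences was not tested.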

How the data were processed

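Total RNA of longissimus muscle from 48 barrows was labelled with Cy3 and hybridised on one-colour Agilent arrays. The authors deposited spot intensities, read with Agilent Feature Extraction 10.7.3.1, and a table of log2 values, which holds the log2 median intensity minus each array's median. R 2.10.0 is named in the submitters' processing notes. The files give no mapped positions, so no coordinates are given.

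Here the log2 of the processed signal was used, without control and outlier spots, centred on each array's mean over probes well above background on at least 12 arrays. The tests were moderated tests of limma 3.58.1 (R 4.3.3) between the 4 group means, with Benjamini-Hochberg adjustment over 42125 probes, at 0.05. The number of arrays limits the precision. Tables were made with Python 3.11.15 and pandas 2.3.3. The fit was tested on simulated data.

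Named probes were those of KCNE1, the called members, the brightest probe of each preset muscle channel gene, those next to the filter and the 3 largest interactions. The members and lists were chosen with earlier results of these data known. Alternatives covered scaling, background correction, filter, outlier spots, slide, the deposited table and averaging by gene. Some items are counted but not reported by name here, and are left out of the plots.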

Additional observations from a re-analysis of the deposited data

How the results depend on the processing

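The count of 13 of 66 members called between the lines was 8 of 66 after normexp and 8 of 121 without a filter on dim probes. It was 8 of 47 genes when the probes of a gene were averaged. Of these, 8, 7 and 8 were shared. Of all that was tested there, 13.5%, 6.42% and 14.9% were called, beside 16.4% in the main setting. In the other alternatives the count was 9 to 17, where 14.8% to 20% of all tested probes were called. They held 66 members, but 42 with the filter on all 48 arrays and 48 in the deposited table. With the slide as a block the count was 17, beside 20% of all tested probes, with KCNMB1, KCNN4, CACNB1 and CACNB3 added. On the HF diet the count of 6 became 10 with the slide as a block. There 9.94% of all tested probes were called, beside 6.39% in the main setting. The HF count was 4 after quantile normalization, normexp, no filter and averaging by gene, beside 5.57%, 4.3%, 1.33% and 5.51% of all that was tested. After the 75th percentile it was 2 higher and 4 lower in place of 1 and 5 (6.45% of all tested probes called). With the filter on all 48 arrays it was 3 higher and 4 lower of 42 (8.63%). On the LF diet the count of 2 became 1 after the 75th percentile, quantile normalization, normexp and no filter. It was also 1 with the filter on all 48 arrays, in the deposited table and averaging by gene. In these alternatives 0.703% to 3.06% of all that was tested were called on the LF diet, beside 2.47% in the main setting. Members called for diet or interaction stayed at 0 in every alternative. Of the 13 called probes, none changed sign, and 6 were called in every alternative fitted by probe that held them. Among the 6 were KCNE1 A_72_P035586, KCNAB3, KCNH2, KCNG2 and CACNA1G. Averaged by gene, KCNH2 was not called (0.28, adjusted p = 0.119). Differences at 0.00 changed sign: that of KCNE3 was 0.0033 after the 75th percentile, 0.027 after normexp, 0.0016 without a filter, 0.0086 with the filter on all 48 arrays, 0.016 in the deposited table and 0.040 without pig 45 of HF_RFIpl. That of KCNQ5 was 0.0071, 0.023, 0.0054, 0.012, 0.017 and 0.0013 in the same order. The cause of these changes was not tested. The alternative without pig 45 was added after seeing the data. Spots near background limit the reading of both kept KCNE1 probes. No paired analysis was made, because the labels used here give each pig a number of its own and no litter or other pairing.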

Other observations

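KCNN3 and KCNN4 each have 2 spots on the array with the same 60 bases, which gives a measure of the error between spots. For KCNN3, well above background on all 48 arrays by both spots, the difference between the spots of an array had an SD of 0.26, against SDs between pigs within groups of 0.47 and 0.53. For KCNN4 the spots were well above background on 2 and 5 arrays, and the difference between them had an SD of 1.0, above the SDs between pigs of 0.77 and 0.71. Fitted without a filter on dim probes, the line difference of KCNN4 was 0.23 by one spot (adjusted p = 0.591) and 0.76 by the other (adjusted p = 0.0138), while KCNN3 was at 0.28 and 0.31. Another KCNN4 probe, of a different sequence, A_72_P459062, was well above background on 48 arrays and at -0.22 (adjusted p = 0.0765). Of the 55 member probes not kept, 16 were well above background on 0 arrays.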
